A study of Saccharomyces cerevisiae with 9 samples.

Results

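The iron uptake system of Saccharomyces cerevisiae was followed through 10 genes: FRE1, FET3, FTR1, ARN1, ARN2, SIT1, FIT1, FIT2, FIT3 and AFT1. They were chosen by name and function, but with earlier results of these data known. All 10 had a row among the 7122 genes of the table, and 9 of them were among the 6083 genes that had enough counts to be tested. The exception was ARN2, which had no count in any library. None of the 9 tested genes passed an adjusted p of 0.05 between wild type (WT) and either double deletion strain, or between the deletion strains, where 0.460%, 0.132% and 0.197% of all tested genes did. What the iron uptake genes did show was a large spread between libraries of the same strain, in which most of them were high or low together and replicate 1 of the cpt1Δ ept1Δ strain stood lowest.

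Yeast takes up iron in several ways. A surface reductase such as Fre1 turns ferric iron, and also cupric copper, into the form that transporters accept, and the multicopper oxidase Fet3 and the permease Ftr1 then carry the iron into the cell as a pair. Iron bound to siderophores, the iron chelators that microbes secrete, enters through Arn1, Arn2 and Sit1, and the mannoproteins Fit1, Fit2 and Fit3 hold siderophore iron in the cell wall. Aft1 is the transcription factor that binds the promoters of these genes and activates them when iron is scarce. It is controlled mostly through its movement between cytoplasm and nucleus, so its own RNA level need not follow its activity.

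RNA levels were measured by sequencing of poly(A) RNA in 9 libraries, 3 of each strain, all from a prototrophic strain named CEN.P.K in the labels and grown to log phase in minimal synthetic medium with 2% glucose. WT carried no labelled deletion, ect1Δ pct1Δ lacked ECT1 and PCT1, the CTP-using step of the Kennedy pathway, which makes phosphatidylethanolamine and phosphatidylcholine, and cpt1Δ ept1Δ lacked CPT1 and EPT1, the phosphotransferases of its last step. The medium was not labelled as low or high in iron. The sources used here do not give the number of clones of each deletion strain or whether replicates were separate cultures, so a p-value speaks only of the spread among libraries, which may be technical.

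Each library held between 5669951 and 11793688 counts. The deleted genes matched the labels: ECT1 and PCT1 averaged 0.167 and 0.72 FPKM (fragments per kilobase of gene, scaled to library size) in ect1Δ pct1Δ against 110.3 and 107 in WT, and CPT1 and EPT1 averaged 0.27 and 0.163 in cpt1Δ ept1Δ against 195 and 128 in WT. PAH1 and DGK1, given as the knocked-out genes in the text on the design, were present in every group, at 18.9 to 20.9 FPKM for PAH1 and 123 to 127 for DGK1. Markers of mating type a summed to 1374 to 1510 CPM (counts scaled to library size, not to gene length) in the 9 libraries and those of mating type alpha to 45.8 to 53.4, with none of either list at 0. For markers of cells past log phase the sums were 234 to 251 CPM in WT, 242 to 270 in cpt1Δ ept1Δ and 280 to 318 in ect1Δ pct1Δ. Of these 10 markers STF2 and YGP1 were called higher in ect1Δ pct1Δ than in WT, by log2 differences of 0.80 ± 0.09 and 0.55 ± 0.11 (SE). STF2 was called under all 16 alternatives, but YGP1 lost its call under 9 of them, with an adjusted p of 0.229 without ect1Δ pct1Δ replicate 3. By systematic name, STF2 (YGR008C) is next to ECT1 (YGR007W), a gene deleted in ect1Δ pct1Δ. From ect1Δ pct1Δ to cpt1Δ ept1Δ, where ECT1 is present, the log2 difference of STF2 was −0.72. Whether the deletion beside it raised STF2 was not tested. The ect1Δ pct1Δ sums, which include STF2, lay above those of the other strains, and their part in the iron gene results was not tested.

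Most promoters of the uptake genes carry the short motif that Aft1 is known to bind, and the stretches that hold it are shown because they are what the genes share apart from their function. In the 500 bases before each annotated gene start, on either strand, the core motif GCACCC was found in 8 of the 10 genes. It occurred in 457 of 6000 such windows over the genome (7.62%). The longer form TGCACCC, which contains the core, was found in the same 8 genes and in 140 of the 6000 windows (2.33%). At least 2 copies of the core stood before 5 of the genes, FET3, FTR1, FIT1, FIT2 and FIT3, against 0.683% of all windows. FIT2 had 5 copies, and FIT1 and FIT3 had 3 each. ARN2, which had no count here, carried 1 copy. The related form ACACCC stood before 3 of the 10 genes and in 10.8% of all windows. The stretches below are from RefSeq's R64 assembly, read 5′ to 3′ on the strand of the gene, with each core motif in capitals. Where the motif lies on the other strand the capitals read GGGTGC. Each stretch covers only part of the window. Those of FET3 and FTR1 hold 1 of 2 copies each, and that of FIT2 holds 3 of 5.

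FET3, chrXIII:388557-388592, plus strand: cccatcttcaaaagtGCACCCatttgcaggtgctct

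FTR1, chrV:461894-461929, minus strand: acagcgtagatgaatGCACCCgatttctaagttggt

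ARN1, chrVIII:21210-21245, minus strand: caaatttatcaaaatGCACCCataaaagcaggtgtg

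SIT1, chrV:27454-27489, plus strand: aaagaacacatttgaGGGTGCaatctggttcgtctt

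FIT1, chrIV:1505062-1505198, minus strand: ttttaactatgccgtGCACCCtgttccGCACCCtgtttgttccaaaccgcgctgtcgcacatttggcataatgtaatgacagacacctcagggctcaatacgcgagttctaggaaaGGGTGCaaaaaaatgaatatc

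FIT2, chrXV:1059185-1059303, plus strand: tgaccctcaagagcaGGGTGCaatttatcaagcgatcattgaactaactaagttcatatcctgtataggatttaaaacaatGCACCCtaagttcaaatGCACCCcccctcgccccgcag

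FIT3, chrXV:1061219-1061354, minus strand: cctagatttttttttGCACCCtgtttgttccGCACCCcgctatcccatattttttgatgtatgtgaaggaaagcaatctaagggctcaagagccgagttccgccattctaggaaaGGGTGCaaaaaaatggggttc

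FIT1 and FIT3 share the layout of their motifs. In both, a pair of motifs lies 278 to 284 and 263 to 271 bases before the start, and another lies on the other strand 177 to 184 bases before it, in each case followed by a run of a bases. Their coding sequences are also alike, with 75.2% identity over 395 bases, so some reads of FIT1, the far weaker of the pair, could come from FIT3, and its values are uncertain to that extent. The sources used here do not say how reads with several matches were counted.

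FRE1 and AFT1 had no GCACCC in these windows. FRE1 instead held 3 copies of TTTGCTC, the motif of the copper regulator Mac1, which was present in 8.62% of the windows and at least 2 times in 0.35% of them. The copper transporter gene CTR1, shown beside FRE1 because it is a known Mac1 target, held 2 copies. The TTTGCTC copies are in capitals, with GAGCAAA for the other strand, and the FRE1 stretch holds 2 of its 3 copies.

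FRE1, chrXII:568266-568319, plus strand: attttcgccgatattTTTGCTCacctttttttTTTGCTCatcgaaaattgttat

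CTR1, chrXVI:785859-785918, plus strand: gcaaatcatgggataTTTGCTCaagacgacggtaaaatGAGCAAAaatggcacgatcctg

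A match is a description of these letters and not a bound site, and a window without a match says nothing of the factor.

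**Figure D1:**
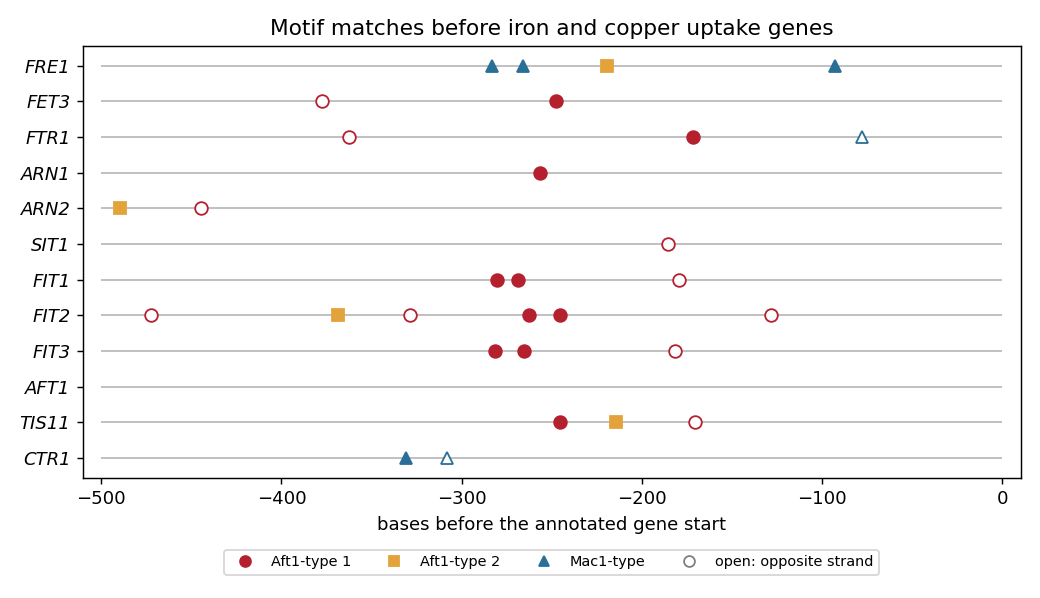
Positions of motif matches in the 500 bases before the annotated start of the 10 iron genes, TIS11 and CTR1. The x axis is the distance from the gene start in bases. Circles mark GCACCC (Aft1-type 1), squares ACACCC (Aft1-type 2) and triangles TTTGCTC (Mac1-type), with open symbols for the strand opposite to the gene. FIT2 shows 5 circles, FIT1 and FIT3 show the same layout of 3, and AFT1 shows no match.

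The order of the levels in WT, compared per length in FPKM, ran from FTR1 through FET3, ARN1, FIT2, FRE1, FIT3, AFT1 and SIT1 to FIT1, with ARN2 at 0. Most neighbours in that order kept their places in all 9 libraries. FIT2 stood above FRE1 in only 6 of 9 and below ARN1 in 8 of 9. In WT the libraries of ARN1 and FIT2, of FIT2 and FRE1, and of FRE1 and FIT3 overlapped, so the ranges do not part these neighbours, although FRE1 stood above FIT3 within each of the 9 libraries.

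**Figure D2:**
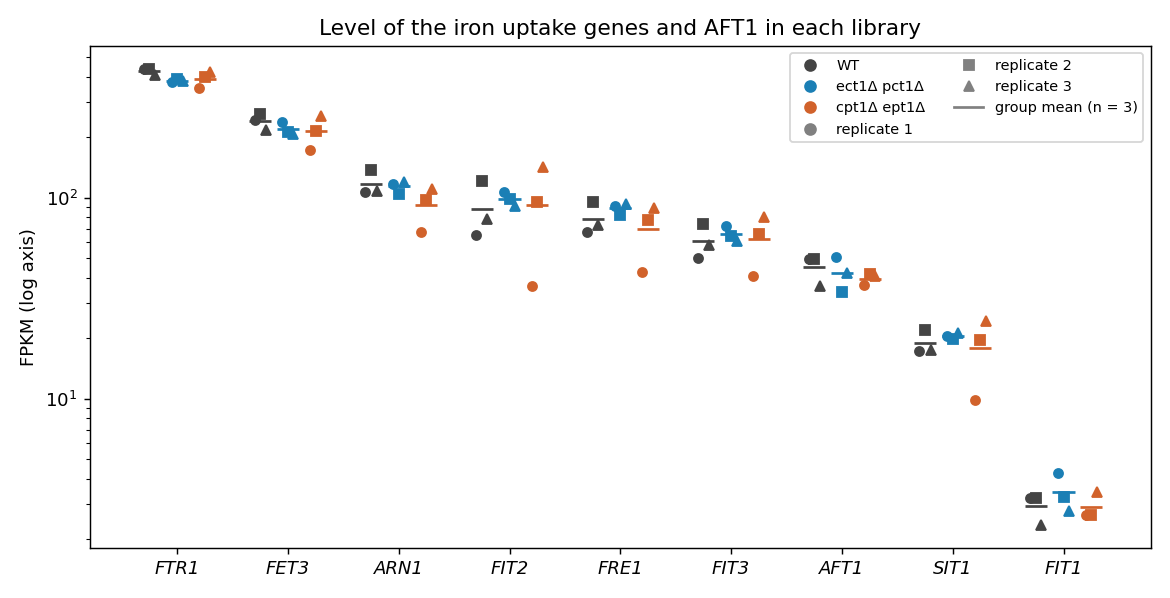
Level of each iron gene in each library, in FPKM on a log axis. Colours mark the strain, symbols the replicate number, and short lines the mean of 3 libraries. FIT2 runs from 36.5 to 143 FPKM within cpt1Δ ept1Δ, while FTR1 stays between 351 and 439 in all 9 libraries. ARN2, at 0 in every library, is not drawn.

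The activator AFT1 (YGL071W, chromosome VII, 372012 to 374084, plus strand) had 49.9, 49.5 and 36.3 FPKM in WT. In ect1Δ pct1Δ the values were 50.8, 34.1 and 42.0 FPKM, and in cpt1Δ ept1Δ they were 36.7, 41.6 and 40.6. The 3 strains overlapped, and the means were 45.2 ± 7.75, 42.3 ± 8.36 and 39.6 ± 2.57 (SD, n = 3 each). On the log2 scale AFT1 differed from WT by −0.13 ± 0.12 (SE) in ect1Δ pct1Δ and by −0.19 ± 0.12 in cpt1Δ ept1Δ, with adjusted p of 0.932 and 0.99 by edgeR's quasi-likelihood test with Benjamini-Hochberg adjustment, the test behind every adjusted p given here. In RNA from whole cultures, fewer cells with a transcript and less of it per cell cannot be told apart.

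The surface reductase gene FRE1 (YLR214W, chromosome XII, 568567 to 570627, plus strand) had 67.2, 95 and 73.4 FPKM in WT and 90.5, 81.9 and 93.7 in ect1Δ pct1Δ. In cpt1Δ ept1Δ it had 42.6 in replicate 1 but 77.8 and 88.8 in replicates 2 and 3. Its lowest library therefore lay in the same strain as a library close to the highest WT value, and all groups overlapped. The log2 difference from WT was 0.17 ± 0.18 (SE) in ect1Δ pct1Δ and −0.15 ± 0.18 in cpt1Δ ept1Δ, neither called, with adjusted p of 0.938 and 0.9995.

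The oxidase gene FET3 (YMR058W, chromosome XIII, 388822 to 390732, plus strand) had 244, 261 and 218 FPKM in WT and 237, 212 and 208 in ect1Δ pct1Δ. The cpt1Δ ept1Δ libraries had 173, 216 and 254. Its values overlapped between all strains, and the log2 differences from WT were −0.15 ± 0.10 and −0.17 ± 0.10 (SE) in the same order of strains. Its partner FTR1 (YER145C, chromosome V, 460526 to 461740, minus strand), the permease and the strongest gene of the group, had 435, 439 and 411 FPKM in WT. The ect1Δ pct1Δ libraries had 378, 390.0 and 381, and those of cpt1Δ ept1Δ had 351, 398 and 424.

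FTR1 was the 1 iron gene whose WT and ect1Δ pct1Δ libraries did not overlap, a pattern that 10.6% of all tested genes showed in that comparison. It was lower in ect1Δ pct1Δ by a log2 difference of −0.17 ± 0.06 (SE; 95% interval −0.30 to −0.03), but its adjusted p was 0.584. Against WT the difference in cpt1Δ ept1Δ was −0.13 ± 0.06, also not called, with an adjusted p of 0.948. The level of FTR1 per length was 1.59 to 2.03 times that of FET3 over the 9 libraries, and the highest ratio was in cpt1Δ ept1Δ replicate 1.

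ARN1 (YHL040C, chromosome VIII, 19088 to 20971, minus strand), a siderophore transporter gene, had 106, 138 and 109 FPKM in WT and 117, 105 and 120.0 in ect1Δ pct1Δ. In cpt1Δ ept1Δ it had 67.7, 97.8 and 110.1. Among the iron genes it had the largest difference between cpt1Δ ept1Δ and WT, a log2 difference of −0.35 ± 0.13 (SE; 95% interval −0.61 to −0.08), but replicate 3 lay within the WT range and the adjusted p was 0.778. Without cpt1Δ ept1Δ replicate 1 the difference was −0.17.

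SIT1 (YEL065W, chromosome V, 27657 to 29543, plus strand), another siderophore transporter gene, was weaker, with 17.3, 22.1 and 17.5 FPKM in WT and 20.6, 19.8 and 21.3 in ect1Δ pct1Δ. In cpt1Δ ept1Δ it had 9.89 in replicate 1, 19.7 in replicate 2 and 24.3 in replicate 3. The lowest and the highest of its 9 values thus came from the same strain. Its log2 difference from WT was 0.12 ± 0.21 (SE) in ect1Δ pct1Δ and −0.04 ± 0.20 in cpt1Δ ept1Δ, and the latter became 0.23 without replicate 1 of cpt1Δ ept1Δ.

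ARN2 (YHL047C, chromosome VIII, 8351 to 10213, minus strand), the remaining siderophore transporter gene, had 0 counts in every library. A count of 0 allows a level of up to 0.254 to 0.529 CPM per library (3 counts; counting error only), and up to 0.0384 CPM over the 78192502 counts of all 9. Its neighbours on both sides had few or no counts in these libraries: YHL048C-A, YHL046W-A (which overlaps ARN2 by 233 bases), PAU13 and YHL045W had 0 counts, and COS8 had 7 in all. ARN1, on the same chromosome arm, had 15611. Over the genome, 356 of the 7122 genes had no count in any library. Whether ARN2 and its neighbours are present in the genome of this strain was not tested. The longest match of ARN2 in another gene was 78.9% identity over 95 bases of ARN1, beside 83.3% over 60 bases of GEX2.

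The mannoprotein genes FIT2 and FIT3 are neighbours on chromosome XV, with the reductase genes FRE3 and FRE5 on either side. FIT2 (YOR382W, 1059531 to 1059992, plus strand) had 65.0, 121 and 78.2 FPKM in WT and 107, 98.2 and 90.8 in ect1Δ pct1Δ. In cpt1Δ ept1Δ it had 36.5, 95.8 and 143, so that the highest and lowest of the 9 values both came from this strain. FIT3 (YOR383C, 1060441 to 1061055, minus strand) had 50.2, 74.1 and 58.0 FPKM in WT and 72.6, 64.9 and 61.1 in ect1Δ pct1Δ. Its cpt1Δ ept1Δ libraries had 40.9, 65.9 and 80.1. Its extremes fell in the same libraries as those of FIT2.

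The level of FIT2 per length exceeded that of FIT3 in 8 libraries, by up to 1.78 times, but was 0.894 times that of FIT3 in cpt1Δ ept1Δ replicate 1. On the log2 scale FIT2 differed from WT by 0.19 ± 0.31 (SE) in ect1Δ pct1Δ and 0.12 ± 0.30 in cpt1Δ ept1Δ. The 95% interval of the former, −0.45 to 0.83, was the widest among the iron genes. FIT3 differed by 0.14 ± 0.18 and 0.07 ± 0.18. FIT1 (YDR534C, chromosome IV, 1503314 to 1504900, minus strand) was weakly expressed, with 2.36 to 3.22 FPKM in WT, 2.63 to 3.42 in cpt1Δ ept1Δ and 2.78 to 4.27 in ect1Δ pct1Δ, from 23 to 62 counts per library. Its log2 differences of 0.20 ± 0.23 and −0.02 ± 0.23 were within that spread.

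Between WT and ect1Δ pct1Δ, 0 of the 9 tested iron genes were called at an adjusted p of 0.05, where 0.460% of all genes were. At an unadjusted p of 0.05 the count was 1 gene, FTR1, against 6.61% of all genes. The median log2 difference of the 9 genes was 0.12, with 5 higher and 4 lower, beside 0.00 over all genes tested. Between WT and cpt1Δ ept1Δ, 0 of 9 were called against 0.132% of all genes, and 1 gene, ARN1, had an unadjusted p below 0.05, against 5.28%. There the median was −0.13, with 2 higher and 7 lower, beside a median over all genes within 0.01 of 0. The 2 comparisons share the WT libraries.

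Set directly against each other, the deletion strains differed in 0 of the 9 genes, against 0.197% of all genes, and ARN1 alone had an unadjusted p below 0.05, with a log2 difference of −0.29 ± 0.13 (SE) from ect1Δ pct1Δ to cpt1Δ ept1Δ and an adjusted p of 0.973. At that unadjusted level 4.72% of all genes passed. The groups of 1, 0 and 0 iron genes failed to overlap in the 3 comparisons, where 10.6%, 10.4% and 10.3% of all genes did so. DESeq2's Wald test and limma on log2 FPKM also called 0 of the iron genes in each comparison.

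**Figure D3:**
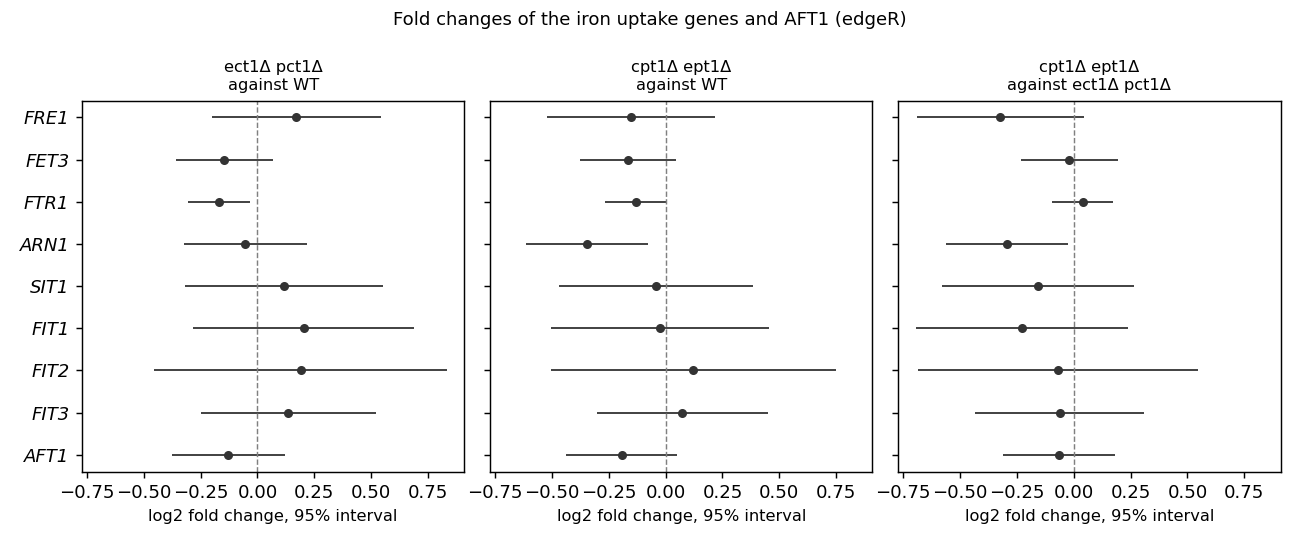
Log2 fold change of each tested iron gene in the 3 comparisons, from edgeR. Points are estimates and bars their 95% intervals, and the dashed line is no difference. The intervals of FTR1 in ect1Δ pct1Δ and of ARN1 in cpt1Δ ept1Δ leave out 0 before adjustment, and FIT2 has the widest interval.

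Within strains the iron uptake genes were among the most variable of all genes. Of the 5198 genes with a mean of at least 10 CPM, the median SD of log2 CPM within strains was 0.10. FIT2 reached 0.65, and 0.077% of those genes were at least as variable. For SIT1 the SD was 0.41 (0.231% of genes), for FRE1 0.36 (0.385%), for FIT3 0.34 (0.5%) and for ARN1 0.25 (1.94%). The reductive pair was steadier, with 0.19 for FET3 (8%) and 0.09 for FTR1 (56.4%), while AFT1 had 0.21 (4.37%).

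Much of that spread lay in cpt1Δ ept1Δ. The highest of its 3 libraries exceeded the lowest 3.96-fold for FIT2, 2.49-fold for SIT1, 2.11-fold for FRE1, 1.99-fold for FIT3 and 1.65-fold for ARN1, in CPM. Among the 5198 genes the median ratio was 1.10, and 0.192% reached a ratio of 2. For AFT1 the ratio was 1.13, which 35.6% of genes reached.

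The library that stood apart was cpt1Δ ept1Δ replicate 1, picked out by the low values of these same genes. It was the lowest of the 9 for 7 of the 8 uptake genes, all but FIT1, where 10.2% of all tested genes had their lowest value. Because the library was picked on the uptake genes, and most of these vary together, their counts and shares there are descriptions and no test. Compared with the mean of the other libraries of its strain in CPM, it held 30.4% of FIT2, 44.7% of SIT1, 50.8% of FRE1, 55.6% of FIT3, 64.8% of ARN1, 73.0% of FET3, 84.8% of FTR1 and 86.7% of FIT1. AFT1 stood at 88.9%. Only 34 of the 5198 genes (0.654%) lay below 75% there, and 6 of them were uptake genes and 4 were other Aft1 targets.

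The remaining genes below that level included the zinc transporter gene ZRT1 (62.1%), the biotin precursor transporter gene BIO5 (68.5%), the arginase gene CAR1 (73.4%) and the mitochondrial 21S_rRNA (5.91%). The total of 8354262 counts of this library lay inside the range of the others, its TMM normalisation factor was 1.00, and the median of all its genes lay within 0.01 of the mean of the 9 libraries on the log2 scale. The median deviation of its 8 uptake genes was −0.63.

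At the other end, WT replicate 2 was above the 9-library mean for all 8 uptake genes and highest for 4 of them, with a median deviation of 0.24. In cpt1Δ ept1Δ replicate 3, also above the mean for all 8, 3 genes had their highest value, with a median of 0.21. The lowest library and a library well above the mean were thus of the same strain, and the WT libraries spanned −0.07 to 0.24. The ect1Δ pct1Δ libraries lay closer together, at 0.16, 0.10 and 0.00. The summed level of the 8 genes was 1408 to 1627 CPM in WT and 1390 to 1439 in ect1Δ pct1Δ, while the cpt1Δ ept1Δ libraries had 1035, 1362 and 1578.

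**Figure D4:**
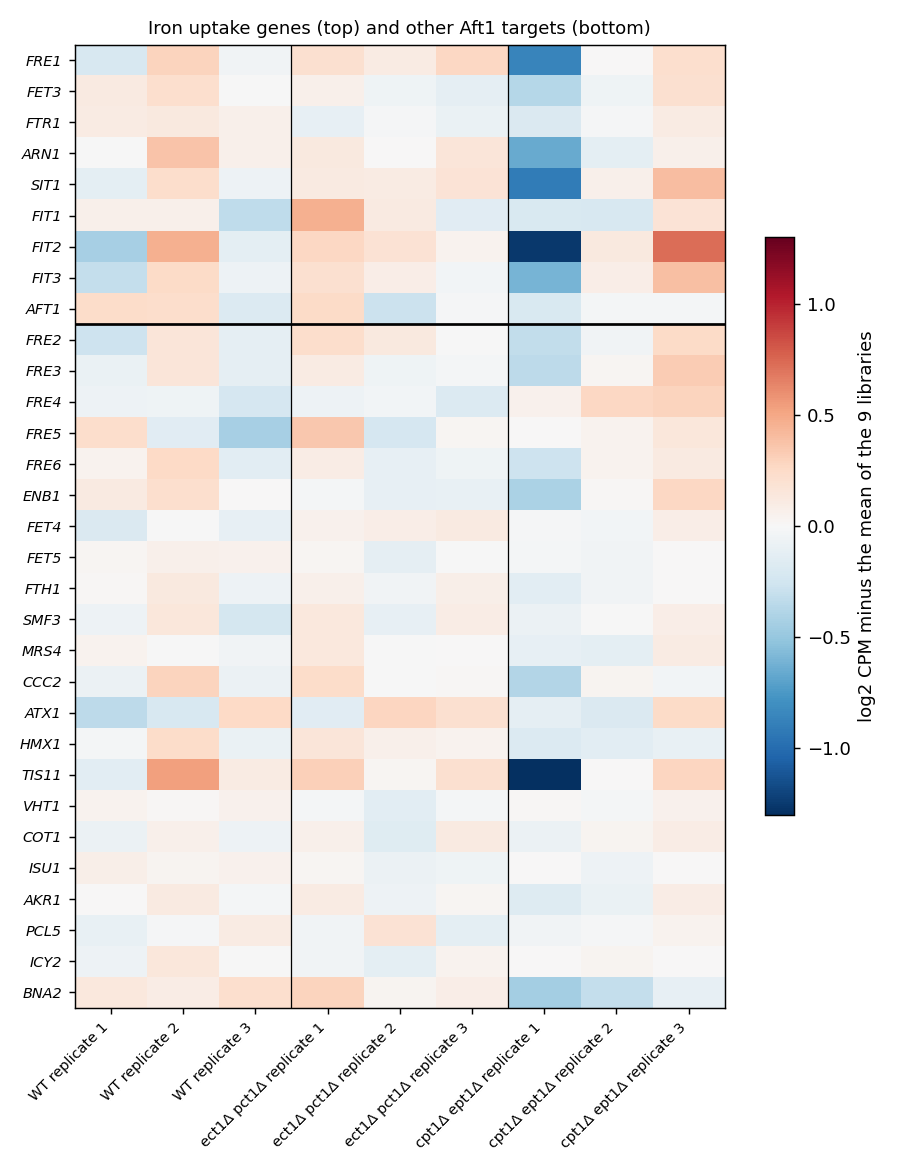
Level of the tested iron genes (top 9 rows) and 22 other Aft1 targets (below the line) in each library, as log2 CPM minus the mean of the 9 libraries. Red is above and blue below that mean, and vertical lines part the strains. The column of cpt1Δ ept1Δ replicate 1 is darkest blue for FIT2, SIT1, FRE1 and TIS11, and the columns of WT replicate 2 and cpt1Δ ept1Δ replicate 3 are red for the same genes.

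The direction of several cpt1Δ ept1Δ differences therefore rested on single libraries. Without replicate 1 the median log2 difference of the 9 genes from WT was 0.03, and without replicate 3 it was −0.32. For FIT2 these values were 0.47 and −0.35, for SIT1 0.23 and −0.32, for FRE1 0.09 and −0.37, and for FIT3 0.29 and −0.15. FTR1, FET3 and ARN1 stayed below WT under either omission. No iron gene was called with any 1 of the 9 libraries left out.

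Most pairs of uptake genes were high or low in the same libraries. In each pair both values come from the same library. The median Pearson correlation of log2 CPM over the 28 pairs was 0.755, from 0.079 for FTR1 and FIT1 to 0.987 for the neighbours FIT2 and FIT3. With strain means taken out the median was 0.887. AFT1 itself correlated with the uptake genes at 0.262 to 0.616. These are descriptions of 9 libraries in which 1 library carries much of the range.

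Outside the chosen genes, the 5 whose level over the 9 libraries was most like the mean of the uptake genes were TIS11 (r = 0.956), BIO5 (0.945), CAR1 (0.928), DYN1 (0.926) and YNL217W (0.920). Without cpt1Δ ept1Δ replicate 1 the same correlations were 0.808, 0.785, 0.838, 0.848 and 0.681. TIS11, also called CTH2, encodes an RNA-binding protein that lowers the messages of iron-using proteins when iron is scarce, and is a known Aft1 target. It had 39.4, 62.4 and 45.2 FPKM in WT and 53.9, 43.2 and 50.2 in ect1Δ pct1Δ. In cpt1Δ ept1Δ it had 17.0, 43.1 and 51.5. TIS11 was picked for its likeness over these same libraries, so its sharing of high and low libraries with the uptake genes is no separate result. None of the 5 genes was called between strains. The promoter of TIS11 held 2 copies of the core motif, on opposite strands, and is shown for comparison with the uptake genes.

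TIS11, chrXII:416811-416921, minus strand: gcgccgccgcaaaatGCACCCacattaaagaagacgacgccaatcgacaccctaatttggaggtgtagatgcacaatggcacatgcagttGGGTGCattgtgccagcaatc

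The other known Aft1 targets, 23 genes of which 22 were tested (all but LSO1), include reductases, vacuolar and intracellular metal transporters and genes of heme breakdown and biotin uptake. The core motif stood before 17 of the 23. None was called in any comparison. Against WT, 14 were higher and 8 lower in ect1Δ pct1Δ with a median of 0.02, and 9 were higher and 13 lower in cpt1Δ ept1Δ with a median of −0.03. The smallest p-values belonged to FET4, a low-affinity iron transporter gene, with a log2 difference of 0.19 ± 0.07 (SE) in ect1Δ pct1Δ and an adjusted p of 0.506, and to BNA2, a gene of NAD synthesis, with −0.43 ± 0.11 in cpt1Δ ept1Δ and 0.313. BNA2 had 18.7, 20.5 and 23.6 CPM in cpt1Δ ept1Δ, all below the 27.3 to 29.6 of WT. In cpt1Δ ept1Δ replicate 1, 10 of the 22 targets had their lowest value, and TIS11 stood at 35.8%, ENB1, a siderophore transporter gene, at 67.8% and the reductase genes FRE3 and FRE2 at 69.0% and 74.2% of the other libraries of the strain.

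Copper is needed by the oxidase Fet3, and copper uptake and storage genes are controlled by Mac1 and Cup2. Of 10 such genes, FRE1 among them, 8 were tested, and CUP1-1 and CUP1-2, identical copies, were at 0 in every library. Reads of identical copies match several places, and how such reads were counted is not stated, so that 0 may not be their level. None of the 8 tested genes was called. CTR1, the high-affinity copper transporter gene, came closest in ect1Δ pct1Δ, with 85.8, 80.0 and 88.2 FPKM against 64.7, 71.4 and 65.3 in WT. All 3 values lay above all WT values, and 10.6% of all tested genes had groups without overlap in that comparison. The log2 difference was 0.33 ± 0.09 (SE) with an adjusted p of 0.213. CTR1 was called in 1 of 17 settings (the main fit and 16 alternatives), at 0.0434 without cpt1Δ ept1Δ replicate 1. Without WT replicate 1 its adjusted p was 0.666. FRE7, a reductase gene of the Mac1 group, differed by 0.25 ± 0.15. In cpt1Δ ept1Δ replicate 1, 5 of the 8 had their lowest value, FRE1 among them, against 10.2% of all tested genes. CTR3, with only 20 counts there, stood at 41.5%, CUP2 at 70.1% and CTR1 at 77.6% of the other libraries of the strain. Above those libraries were FRE7 at 114% and CRS5 at 105%.

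The genes that use iron or handle it inside the cell were mixed in that library. Of 12 genes of heme synthesis and breakdown, 4 had their lowest value there and 3 their highest, with a median deviation of −0.02. Of all tested genes, 10.2% had their lowest value there. The median deviation was −0.04 for 6 genes of vacuolar storage and its regulator, and 0.02 for 25 of iron-sulfur cluster assembly. Of 24 genes for iron-using enzymes, 9 had their highest value in cpt1Δ ept1Δ replicate 1, where 570 of all 6083 tested genes did. ACO1 (aconitase) stood at 116% and CYC1 (cytochrome c) at 119% of the other libraries of the strain. In the same list OLE1 stood at 81.3% and ERG3 at 91.2%. Of the 24 genes, 7 lay below the mean of the 9 libraries there, and the median deviation was 0.06 on the log2 scale. Against WT, 13 were higher and 11 lower in ect1Δ pct1Δ (median 0.03) and 18 higher and 6 lower in cpt1Δ ept1Δ (median 0.07), with 5 and 7 of the 24 below an unadjusted p of 0.05, beside 6.61% and 5.28% of all genes, and none called. RIP1, the iron-sulfur subunit of respiratory complex III, differed by 0.20 ± 0.05 (SE) in ect1Δ pct1Δ with an adjusted p of 0.164. SDH4, a membrane subunit of succinate dehydrogenase, differed by 0.26 ± 0.08 in cpt1Δ ept1Δ with an adjusted p of 0.468.

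Among 25 genes of iron-sulfur cluster assembly, whose mitochondrial part feeds the signal that keeps Aft1 inactive, none was called, and the medians were 0.05 in ect1Δ pct1Δ and 0.04 in cpt1Δ ept1Δ. JAC1, a cochaperone of cluster transfer, had 0.29 ± 0.11 (SE) in the former and CIA2, of cytosolic assembly, 0.22 ± 0.08 in the latter. By systematic name, CIA2 (YHR122W) is next to EPT1 (YHR123W), a gene deleted in cpt1Δ ept1Δ. The part of that deletion in the CIA2 value was not tested. A list of 7 genes held AFT2, a relative of AFT1, and the genes of Aft1 control FRA1, BOL2, GRX3, GRX4, MSN5 and PSE1. These 7 ranged from −0.06 to 0.12 in ect1Δ pct1Δ and from −0.03 to 0.16 in cpt1Δ ept1Δ. The highest in cpt1Δ ept1Δ was BOL2, which with Grx3 and Grx4 holds Aft1 inactive, and MSN5 differed there by 0.07 ± 0.06 (SE). Of the 6 genes of vacuolar storage and its regulator Yap5, and of the 12 of heme synthesis and breakdown, none was called either. YAP5 differed by −0.11 ± 0.12 and the heme oxygenase gene HMX1 by −0.18 ± 0.08 in cpt1Δ ept1Δ, COX15 of heme A synthesis by 0.17 ± 0.06, and the mitochondrial iron carrier gene MRS3 by −0.08 ± 0.08 in ect1Δ pct1Δ.

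**Figure D5:**
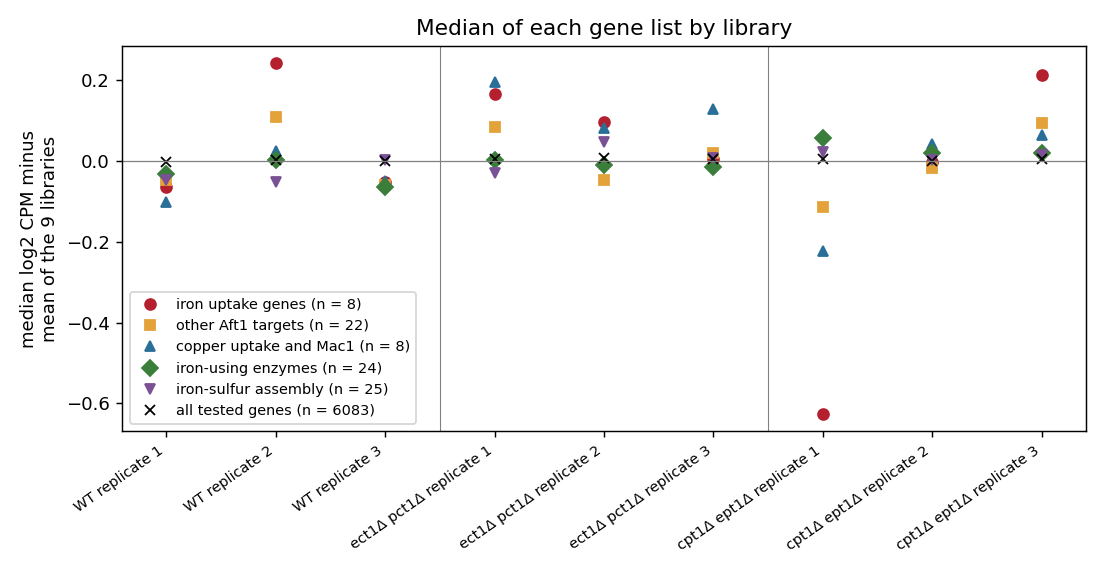
Median level of each gene list in each library, as log2 CPM minus the mean of the 9 libraries. The uptake genes (circles) lie at −0.63 in cpt1Δ ept1Δ replicate 1 and at 0.24 and 0.21 in WT replicate 2 and cpt1Δ ept1Δ replicate 3. The copper list (triangles, FRE1 included) and the other Aft1 targets (squares) are also lowest in cpt1Δ ept1Δ replicate 1, and the median of all tested genes (crosses) stays within 0.01 of 0.

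A metal transporter gene outside the iron system did change between strains. ZRT1, the high-affinity zinc transporter gene, was lower than WT in both deletion strains, by log2 differences of −0.88 ± 0.13 (SE) in ect1Δ pct1Δ and −0.92 ± 0.12 in cpt1Δ ept1Δ, with adjusted p of 0.00121 and 0.00129. No iron uptake gene reached a difference of that size in any comparison.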

How the data were processed

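RNA levels were taken from 9 libraries, whose group and replicate number came from their titles. The table the authors deposited gives each gene a raw count and an FPKM value in every library, and also held 6 columns of 3 libraries with no matching sample, not analysed here. The submitters' processing notes list HTSeq 0.6.1, HISAT2 2.2.1 and build R64, with no role or order, and the sources used here do not say whether counting used strand. The deposited FPKM equalled count divided by gene length and library total in 99.93% of 64098 values (within 0.0051, or 0.002 of the value).

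Counts were fitted with edgeR 4.0.16 in R 4.3.3 (glmQLFit, glmQLFTest, TMM, filterByExpr by group), with all 9 libraries in 1 fit and no covariates. Benjamini-Hochberg adjustment ran over all 6083 tested genes, and an adjusted p below 0.05 was called. CPM values use the TMM library sizes, and log2 CPM a prior count of 1. The fit was tested on simulated data. Libraries of 1 group correlated at 0.990 to 0.994 across genes and differed by more than sampling noise. DESeq2 1.42.0 and limma 3.58.1 were used as alternatives. Windows before gene starts came from RefSeq's R64 annotation, in which 84.6% of the table's genes were found; gene likeness was searched with blastn 2.17.0. All 142 list entries matched the table, BOL2 through its synonym FRA2. Named genes are the 10 iron genes, the deleted genes, the 2 of each other list with the smallest p against WT, ZRT1 and the 5 genes most like the uptake genes; further genes named for their share in cpt1Δ ept1Δ replicate 1 were chosen after their values were seen. The iron genes and lists were chosen with earlier results of these data known.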

Additional observations from a re-analysis of the deposited data

How the results depend on the processing

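No iron gene was called under any of the 16 alternatives in any comparison, and the lowest adjusted p was 0.275. Of 432 recomputed fold changes, 408 kept their direction and 24 changed sign, 22 of these with a library left out. The other 2 are FIT2 in cpt1Δ ept1Δ against WT, at −0.095 and −0.099 with limma on log2 FPKM (pseudocounts 1 and 0.1) against 0.12; the cause was not tested.

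Leaving out 1 library at a time, the median log2 difference of the iron genes ran from −0.023 to 0.23 for ect1Δ pct1Δ against WT, from −0.32 to 0.032 for cpt1Δ ept1Δ against WT, and from −0.38 to 0.11 for cpt1Δ ept1Δ against ect1Δ pct1Δ. For ect1Δ pct1Δ against WT, values that changed sign ran from −0.023 to 0.47 for FIT2, −0.011 to 0.29 for FIT3, −0.13 to 0.068 for ARN1 and −0.27 to 0.0090 for AFT1. For cpt1Δ ept1Δ against WT they ran from −0.35 to 0.47 for FIT2, −0.15 to 0.29 for FIT3, −0.18 to 0.057 for FIT1, −0.32 to 0.23 for SIT1 and −0.37 to 0.094 for FRE1. Between the deletion strains they ran from −0.17 to 0.12 for FET3, −0.032 to 0.11 for FTR1, −0.44 to 0.12 for SIT1, −0.54 to 0.29 for FIT2, −0.29 to 0.15 for FIT3 and −0.20 to 0.079 for AFT1.

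Over all genes the count called between cpt1Δ ept1Δ and WT was 8, but 17 by DESeq2 and 4 without cpt1Δ ept1Δ replicate 2; between ect1Δ pct1Δ and WT it was 28, and 17 without WT replicate 1. Replicate numbers did not pair the libraries, judged on log2 CPM with the strain mean of each gene taken out. On that scale, same-numbered libraries of different strains correlated at −0.264 to 0.254. Differently numbered ones correlated at −0.298 to 0.352, and 2 of 9 libraries correlated best with their own number. With the replicate number as a block, 0 iron genes were called in each comparison, with lowest adjusted p of 0.697, 0.676 and 0.925, and 23, 7 and 11 genes were called in all against 28, 8 and 12. With 3 libraries a group and the spread of FIT2, SIT1 and FRE1 seen here, small differences of these genes are not detectable.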
